A study of Rattus norvegicus with 9 samples.

Results

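Cultures of rat oligodendrocyte precursor cells (OPCs) kept for 5 days with 10 µM bavisant were compared with basal cultures that received no drug. The comparison used 6 of the 9 bulk RNA-seq libraries of the study, 3 at 10 µM and 3 basal, and the other 3, at 1 µM, served to estimate the spread. All 9 came from wild-type (WT) rat brain OPCs in a differentiation medium of DMEM-F12 with laminin, biotin, B27, N1 mix and antibiotics, replaced every 2 days. Bavisant blocks the histamine H3 receptor. Each group held 1 library labelled P11, 1 labelled P13 and 1 labelled P14, with no statement of what this P number stands for. Separate cultures or animals are not named, and the tests may thus measure only technical spread between libraries. A bulk library cannot tell fewer cells of a type from less RNA per cell. For the lower dose, the growth and treatment protocols write 1 mM, but the sample labels and the series' design write 1 µM, which is used here.

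OPCs are the dividing, Pdgfra-positive progenitors of oligodendrocytes, and in differentiation medium they leave the cell cycle and switch on myelin genes. Myelin is a wrapped membrane rich in cholesterol and galactolipids, which the oligodendrocyte largely makes itself. The transcription factor SREBP2 raises the genes of cholesterol synthesis and uptake when sterols in the endoplasmic reticulum are low, and the liver X receptors (LXRs) raise the genes of cholesterol export when oxysterols are high. Cultures of purified OPCs can also hold astrocytes, microglia and some neurons, and RNA of all of these is read together.

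The libraries held 23.9 to 33.5 M estimated reads (M, 1000000 reads) in basal and 38 to 39.3 M in 10 µM cultures. Oligodendrocyte markers summed to 34080 to 38080 TPM (transcripts per 1000000, a level per gene length) in the basal libraries, against 1157 to 1750 for astrocyte, 426 to 627 for microglial and 198 to 378 for neuronal markers. No marker of those lists was at 0 in all 6 libraries. Basal levels of 19139 TPM for Mbp and 181 TPM for the precursor marker Pdgfra show that the cultures labelled OPCs held abundant myelin transcripts. The P number separated the libraries most: the first principal component (54.7% of the variance) set the 3 P11 libraries apart. On the third component (9.42%) the 10 µM libraries, at -15.7, -36.4 and -4.3 for P11, P13 and P14, were lower than all 6 others, which ran from 2.19 to 13.4.

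At 10 µM, 202 genes were higher and 405 lower than in basal cultures, 607 of 15321 tested genes (3.96%, with 1.32% higher and 2.64% lower) by edgeR's quasi-likelihood test with the P number as a block and a Benjamini-Hochberg adjusted p under 0.05. These genes are called rising or falling below. Most changes were small, with a median log2 fold change of 0.32 among the rises and -0.49 among the falls, and 14 rises and 139 falls exceeded 1.5-fold. The rising genes were abundant, with a median of 101 TPM. The falling ones were somewhat below the typical gene, with a median of 13.1 TPM against 18.1 TPM over all tested genes. Together the rising genes held 7.46% of all TPM in basal cultures and 9.25% at 10 µM, and the falling genes 1.34% and 0.946%. The CPM (counts per 1000000 reads, scaled by TMM) of the 2 groups did not overlap for 107 of the 202 rises and 156 of the 405 falls. Among all tested genes the groups did not overlap for 9.33%, with 4.72% higher and 4.61% lower.

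These calls rest on the block and on the pooled spread of all 9 libraries. Without the block 0 genes passed (lowest adjusted p = 0.462, edgeR, with 808 at an unadjusted p under 0.05), and from the 6 libraries alone, with the block, 0 passed as well (lowest adjusted p = 0.0527). Leaving out 1 library gave 0 genes (basal P11), 1 (basal P13), 57 (basal P14), 529, 158 and 64 (10 µM P11, P13 and P14) or 260, 581 and 261 (1 µM P11, P13 and P14). Without all 3 P11 libraries 10 genes passed. Lower genes made up 66.7% of the calls, but 84.3% when scaled by library totals and 82.9% by limma on log2(TPM + 1), and 58.6% with the trend over gene length removed.

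**Figure D1:**
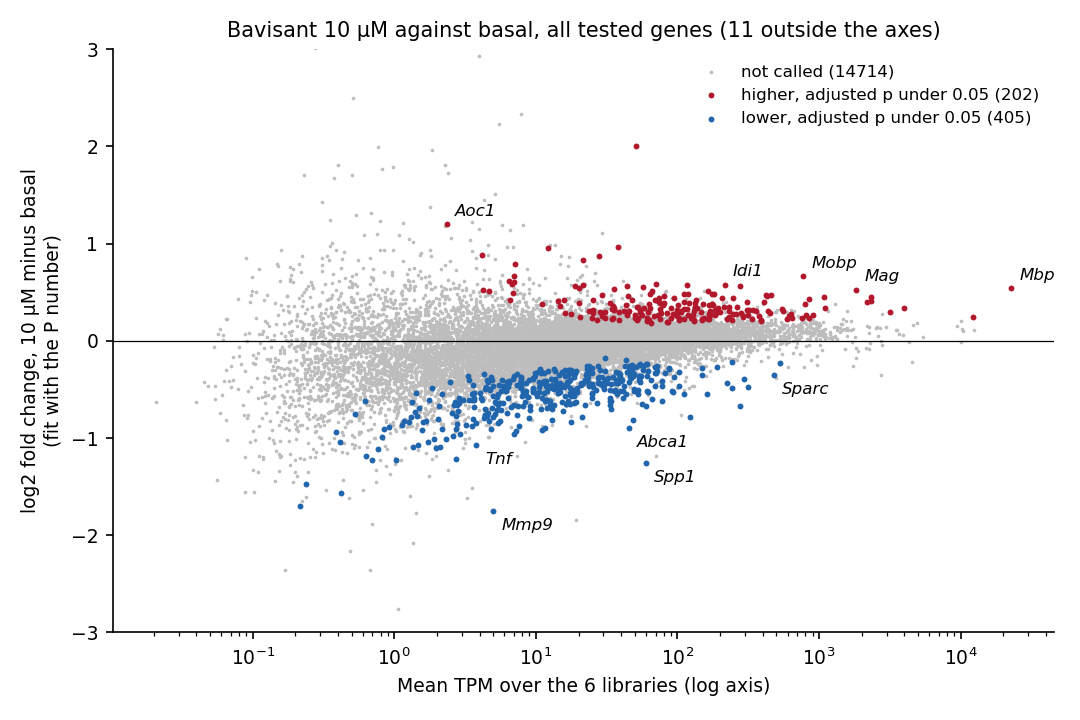
Each point is a tested gene, with its mean TPM over the 6 libraries on a log axis and its fitted log2 fold change (10 µM minus basal) on the vertical axis. Red (202 genes) and blue (405 genes) mark an adjusted p under 0.05, and the red genes lie further to the right than the blue ones.

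Genes of cholesterol synthesis and uptake rose along the whole pathway. Of 26 tested members 19 rose and none fell, at a median log2 value of 0.39, against -0.01 over all tested genes. The medians within P11, P13 and P14 were 0.40, 0.39 and 0.32. By step, 3 of 3 genes from acetyl-CoA to mevalonate rose, 5 of 6 from mevalonate to squalene, 8 of 11 from squalene to cholesterol, and 3 of 6 for sensing and uptake. All 19 calls were lost when the basal P11 library, the basal P13 library or all P11 libraries were left out.

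The short DNA upstream of these genes is shown because SREBP2 is known to act on such promoters together with NF-Y, a factor that binds the CCAAT box. RefSeq promoters (build GRCr8, 250 bases before to 50 after the start) were found for 14 of the 19 rising genes. The 250 bases before the start are printed 5′ to 3′ on the gene's strand, with CCAAT and its reverse complement ATTGG in capitals.
Hmgcs1, chr2:53382054-53382303, + strand: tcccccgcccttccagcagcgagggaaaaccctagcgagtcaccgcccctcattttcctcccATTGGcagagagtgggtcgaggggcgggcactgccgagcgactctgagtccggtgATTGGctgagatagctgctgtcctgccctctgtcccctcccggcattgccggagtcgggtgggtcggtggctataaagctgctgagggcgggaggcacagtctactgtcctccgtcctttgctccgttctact
Mvk, chr12:47819504-47819753, - strand: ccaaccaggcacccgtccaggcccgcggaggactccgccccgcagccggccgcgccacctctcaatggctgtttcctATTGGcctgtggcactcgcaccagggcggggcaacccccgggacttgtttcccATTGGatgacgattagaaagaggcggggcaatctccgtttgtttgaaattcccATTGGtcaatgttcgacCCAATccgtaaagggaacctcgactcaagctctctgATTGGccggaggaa
Idi1, chr17:66547525-66547774, - strand: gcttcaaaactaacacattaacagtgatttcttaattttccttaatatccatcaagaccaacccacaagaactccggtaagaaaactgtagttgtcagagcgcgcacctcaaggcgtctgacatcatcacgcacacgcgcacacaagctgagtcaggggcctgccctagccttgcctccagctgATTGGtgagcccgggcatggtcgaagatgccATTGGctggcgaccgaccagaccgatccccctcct
Msmo1, chr16:29746863-29747112, + strand: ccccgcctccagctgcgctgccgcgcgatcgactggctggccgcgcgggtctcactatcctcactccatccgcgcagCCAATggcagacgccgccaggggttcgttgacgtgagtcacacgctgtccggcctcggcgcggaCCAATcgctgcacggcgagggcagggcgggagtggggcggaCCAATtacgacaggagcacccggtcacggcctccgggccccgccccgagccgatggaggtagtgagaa
CCAAT on either strand was present in 11 of these 14 promoters of 300 bases (78.6%) and in 37.7% of all 27457 RefSeq promoters of the same length. The 4 stretches printed hold 2, 5, 2 and 3 copies in that order. Others not printed hold fewer, with 1 copy for Insig1, Sc5d and Srebf2 and none for Acat2, Cyp51 and Dhcr7. TCACNCCAC, a form of the sterol regulatory element, was in none of the 14 and in 1.13% of all promoters, the E-box CANNTG in 9 of 14 and 71.6%, and the AP-1 site TGANTCA in 2 of 14 and 7.33%, each on both strands. Among the 10770 promoters matched to tested genes the shares were 37.5% for the first motif, 1.15% for the sterol regulatory element, 62.6% for the E-box and 4.83% for the AP-1 site. CANNTG and TGANTCA can overlap. The motifs were chosen after the gene values were seen, other motif forms searched at the same time are not listed, and a match is only a description of the letters.

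Hmgcs1 (ENSRNOG00000016552) makes HMG-CoA, an early intermediate of the pathway. In the order P11, P13, P14, which holds throughout, it stood at 1195, 1076 and 1287 CPM in basal cultures and 1528, 1550 and 1706 at 10 µM (log2 fold change 0.43 ± 0.06, SE, n = 3 per group, adjusted p = 0.0173). Every treated library was above every basal one. Mvk, the kinase that phosphorylates mevalonate, rose from 34.6, 32.8 and 30.8 to 48.9, 45.6 and 42.6 CPM (0.48 ± 0.05, adjusted p = 0.0101). Idi1 (ENSRNOG00000016690) interconverts the 2 isoprenoid units from which squalene is built. It had the largest fold of the pathway, from 242, 198 and 217 to 347, 306 and 327 CPM (0.58 ± 0.07, adjusted p = 0.0129). The groups were separate for Mvk and for Idi1.

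Past squalene, Sqle (squalene epoxidase) rose from 267, 284 and 277 to 349, 357 and 341 CPM (0.34 ± 0.06, adjusted p = 0.0273). Msmo1, a sterol methyl oxidase, rose from 283, 269 and 277 to 374, 376 and 345 CPM (0.40 ± 0.06, adjusted p = 0.0177). Dhcr7, the enzyme that forms cholesterol from 7-dehydrocholesterol, rose from 185, 160 and 159 to 245, 221 and 208 CPM (0.42 ± 0.04, adjusted p = 0.0101). In all 3 genes the treated libraries were above the basal ones. Pmvk, Tm7sf2 and Lss, the cyclase that follows Sqle, were just outside the threshold (adjusted p = 0.0518, 0.0552 and 0.0561).

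Among the sensors, Insig1, which retains the SREBP complex in the endoplasmic reticulum and is itself an SREBP target, rose from 306, 305 and 284 to 442, 495 and 393 CPM (0.56 ± 0.07, adjusted p = 0.0129). Its groups were separate. Srebf2, which encodes SREBP2, rose by a smaller amount (0.22 ± 0.05, adjusted p = 0.0493), and its escort Scap stood at -0.03 ± 0.04 (adjusted p = 0.667).

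**Figure D2:**
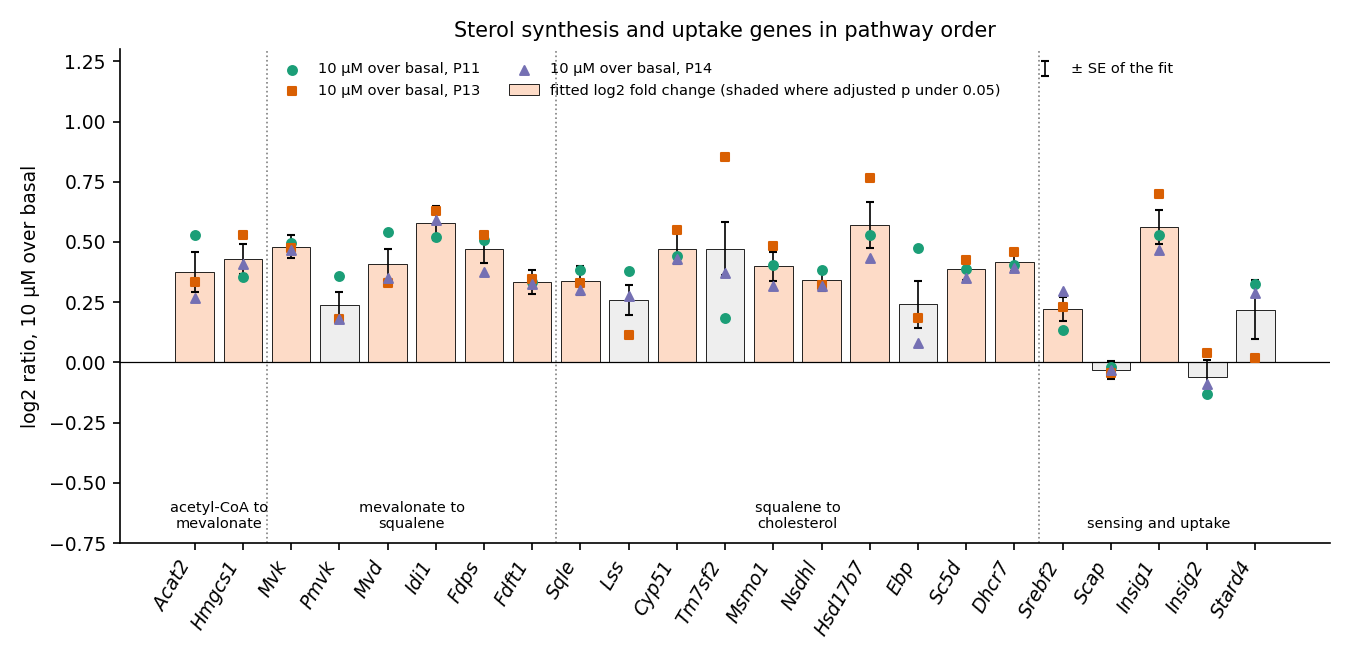
Bars give the fitted log2 fold change (10 µM over basal, ± SE) of 23 sterol genes in pathway order, shaded where the adjusted p was under 0.05, and symbols give the ratio within P11, P13 and P14. The 16 shaded bars are all above 0, and only Scap and Insig2 have bars below 0.

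Some cholesterol export genes fell. Of 16 tested LXR target and efflux genes, 4 fell and none rose (median -0.14). Abca1 (ENSRNOG00000018126), the transporter that loads cholesterol onto apolipoproteins, went from 566, 276 and 246 to 282, 140 and 153 CPM (-0.90 ± 0.11, adjusted p = 0.012). The level was higher in P11 than in the others in both groups, so the groups overlapped, although each treated library was far below its basal partner. Abcg1, its partner for HDL, fell from 44.1, 52.2 and 47.8 to 33.4, 37.7 and 33.6 CPM (-0.46 ± 0.05, adjusted p = 0.0101), without overlap. Srebf1, an LXR target that drives fatty acid synthesis, fell from 53.2, 44 and 51.2 to 26.9, 31.1 and 39.2 CPM (-0.62 ± 0.12, adjusted p = 0.0315), and the lipase gene Lpl also fell (-0.67 ± 0.12, adjusted p = 0.0305). Without the P11 libraries 1 member of the list passed.

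Of 15 fatty acid synthesis genes 2 rose and none fell (median -0.08). They were Elovl1, which lengthens very long chain fatty acids (0.40 ± 0.05, adjusted p = 0.0114), and Acss2, which activates acetate (0.36 ± 0.07, adjusted p = 0.0348). Of 18 genes of myelin galactolipid and sphingolipid synthesis 2 rose, Cers2 (0.29 ± 0.04, adjusted p = 0.0158), a ceramide synthase for very long chains, and Gal3st1 (0.33 ± 0.05, adjusted p = 0.0164), which makes sulfatide. The median of that list, 0.05, turned below 0 under library totals and on TPM. Among 18 PPAR target and fatty acid oxidation genes 2 fell, Cpt1a (-0.48 ± 0.08, adjusted p = 0.0223), the gate of mitochondrial fatty acid import, and the lipase inhibitor Angptl4 (-1.01 ± 0.20, adjusted p = 0.0359).

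A share of the myelin genes rose and none fell. Of 11 compact myelin genes 6 rose and none fell (median 0.24, with 8 of 11 positive and a lowest value of -0.87). Of 28 noncompact and late myelin genes 7 rose and none fell (median 0.23, with 25 of 28 positive). All treated libraries were above all basal ones for 1 compact gene and for 4 noncompact and late genes. They were below all basal ones for 1 compact gene. Mbp (ENSRNOG00000016516), the basic protein that compacts the myelin membrane, stood at 20420, 21035 and 23694 CPM in basal cultures and at 30402, 33154 and 31036 CPM at 10 µM (0.54 ± 0.07, adjusted p = 0.0125). All treated libraries were far above all basal ones. Per gene length its mean went from 19139 ± 2048 (SD, n = 3) to 26348 ± 1223 TPM.

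Mobp, a late compact myelin protein, went from 1206, 283 and 232 to 2210, 366 and 390 CPM (0.66 ± 0.11, adjusted p = 0.0242). P11 stood several-fold above the other numbers in both groups, and the gain within it was also the largest. Mal, a myelin proteolipid, showed the same P11 excess (0.53 ± 0.10, adjusted p = 0.0315), whereas Mog, a late protein of the outer myelin surface, did not pass (0.34 ± 0.10, adjusted p = 0.089).

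Outside compact myelin, Mag, the adhesion protein next to the axon, rose from 2227, 1757 and 1857 to 3592, 2445 and 2465 CPM (0.53 ± 0.08, adjusted p = 0.0177), without overlap. Cnp, an enzyme of the cytoplasmic channels, rose from 5500, 4236 and 4349 to 6576, 5751 and 5397 CPM (0.34 ± 0.05, adjusted p = 0.0169), with treated P14 below basal P11. Gamt, which makes creatine (0.44 ± 0.07, adjusted p = 0.0236), Aspa, which cleaves N-acetylaspartate (0.38 ± 0.05, adjusted p = 0.0164), Adamts4 (0.24 ± 0.04, adjusted p = 0.0284) and Gjb1 (0.31 ± 0.07, adjusted p = 0.04) were also among the 7. As measured beside these genes, the sum of oligodendrocyte markers, which include myelin genes, was 45400 to 47490 TPM at 10 µM, above the basal range, and the part of cell composition in it was not tested. Calls of both lists were lost without the P11 libraries, and also without basal P11 or basal P13 alone.

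**Figure D3:**
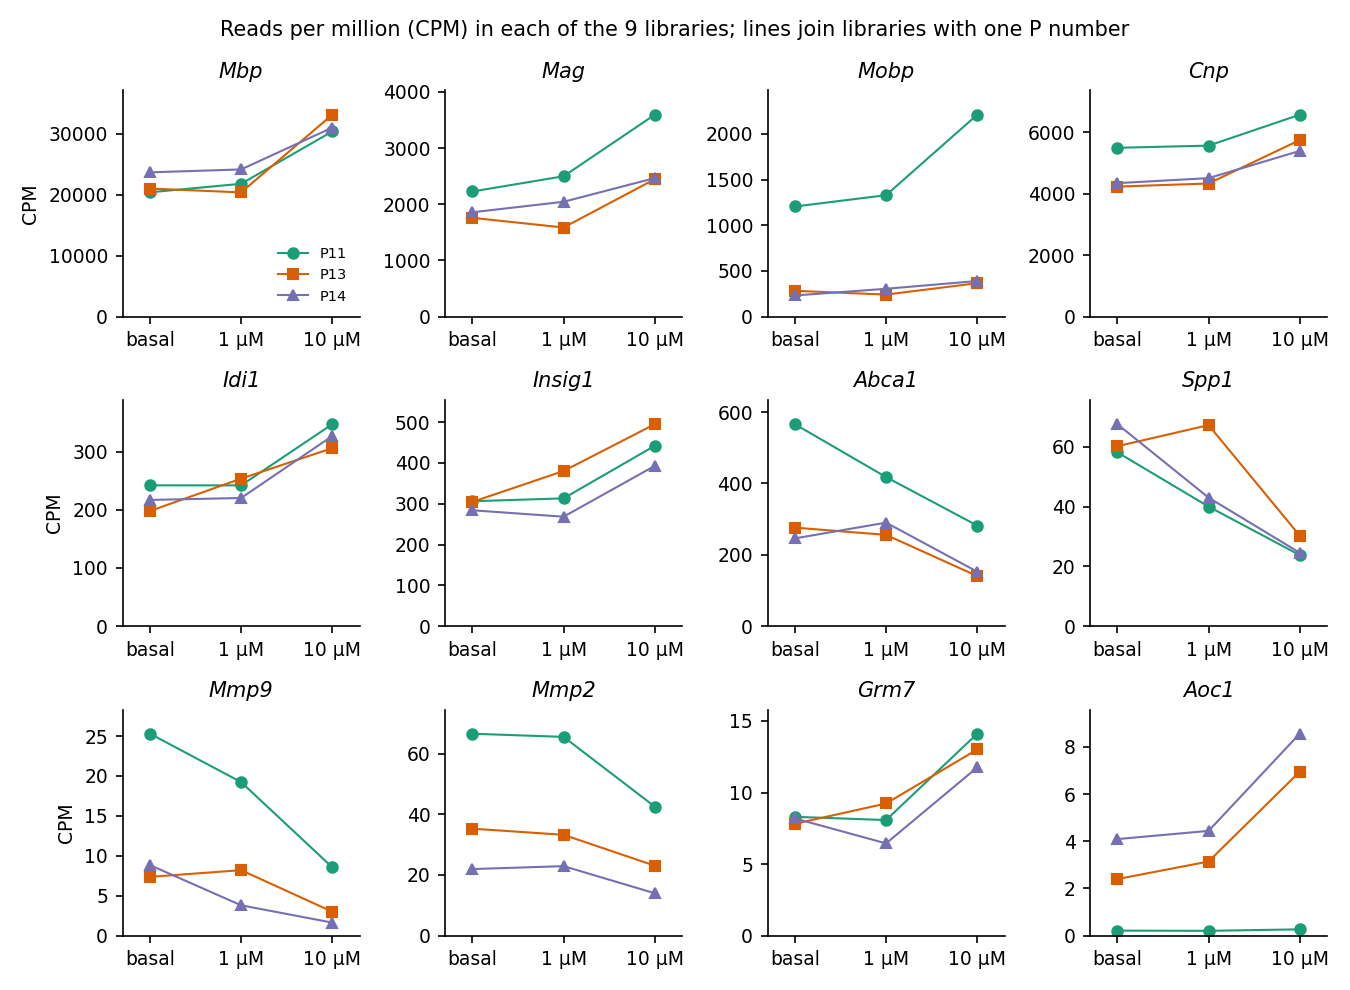
CPM of 12 genes in each of the 9 libraries, with lines joining libraries of one P number across basal, 1 µM and 10 µM. Mbp, Mag, Idi1 and Insig1 are higher and Spp1 lower in every 10 µM library than in every basal one, whereas Mobp, Abca1, Mmp9 and Mmp2 keep a higher level in P11 at each dose.

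Few regulators of the lineage passed the test. Of 23 lineage transcription factors 2 rose and none fell, and the list's median of 0.07 turned to -0.03 on TPM. Olig1 stood at 944, 988 and 1062 against 1222, 1337 and 1225 CPM (0.34 ± 0.05, adjusted p = 0.0217), and Olig2, the neighbour that specifies the lineage, at 577, 539 and 510 against 733, 682 and 577 CPM (0.29 ± 0.06, adjusted p = 0.0378). The treated values of Olig1 were clear of the basal ones, and treated P14 of Olig2 equalled basal P11 to the digits given. Sox10 (0.30 ± 0.07, adjusted p = 0.0502) and Myrf (0.13 ± 0.05, adjusted p = 0.193), the activator of myelin genes, did not pass. Of 24 markers of newly formed oligodendrocytes 3 rose, Rras2 (0.48 ± 0.05, adjusted p = 0.0114), Sirt2 (0.30 ± 0.06, adjusted p = 0.0401) and Kif19 (0.53 ± 0.11, adjusted p = 0.0367).

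Of 19 OPC markers 1 passed, the endothelin receptor Ednrb, which fell from 282, 296 and 378 to 155, 225 and 324 CPM (-0.49 ± 0.10, adjusted p = 0.0382). Pdgfra (0.18 ± 0.05, adjusted p = 0.0926), Cspg4 (0.22 ± 0.05, adjusted p = 0.0676) and Gpr17 (-0.13 ± 0.19, adjusted p = 0.718) did not. Of 39 cell cycle genes 2 fell and none rose, the cyclin Ccnd2 (-0.55 ± 0.08, adjusted p = 0.0177) and the cell cycle inhibitor Cdkn1a (-0.46 ± 0.07, adjusted p = 0.0185). The medians of that list differed in sign between P numbers, -0.29, 0.29 and 0.09, and Mki67 stood at -0.14 ± 0.15 (adjusted p = 0.601). Among 26 inhibitors of differentiation 2 rose, Gpr37 and Lingo1, and 2 fell, the Notch glycosyltransferase Lfng (-0.38 ± 0.06, adjusted p = 0.0187) and the Wnt antagonist relative Dkk3. Falls made up 5.26% of the OPC markers, 5.13% of the cell cycle genes and 7.69% of the inhibitors, against 2.64% of all tested genes. Rises made up 7.69% of the inhibitors, against 1.32% of all tested genes.

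Many genes of activated phagocytes fell. These are genes that microglia and macrophages raise when they engulf lipid and debris. Of the 19 tested, 11 fell and none rose, with a median of -0.54 (-0.30, -0.68 and -0.57 within P11, P13 and P14). Fold changes were negative in 15 and positive in 4, up to 0.28. The TPM of the whole list changed little, with sums of 5640, 6848 and 5999 in basal and 5677, 6372 and 5457 in treated cultures. Spp1 (ENSRNOG00000043451), which encodes osteopontin, had 58.1, 60.2 and 67.5 CPM in basal cultures and 23.8, 30.3 and 24.6 CPM at 10 µM (-1.26 ± 0.14, adjusted p = 0.0114). Each treated library was far below every basal one. Lgals3 (galectin-3) fell from 21.1, 37.4 and 25.9 to 14.5, 20.5 and 12.7 CPM (-0.81 ± 0.09, adjusted p = 0.0114), and the scavenger receptor Msr1 from 25, 30.8 and 22.4 to 16.9, 15.7 and 13.4 CPM (-0.76 ± 0.10, adjusted p = 0.0139). The groups did not overlap for Spp1, Lgals3 or Msr1. The lectin receptors Clec7a (-0.80 ± 0.13, adjusted p = 0.0216) and Mrc1 (-0.62 ± 0.09, adjusted p = 0.0164) fell too, as did Gpnmb (-0.54 ± 0.11, adjusted p = 0.0341) and the lysosomal marker Cd68 (-0.26 ± 0.05, adjusted p = 0.0341).

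Of 22 homeostatic microglial genes 3 fell (Itgam, Fcgr2b and Ly86) and none rose, at a median of -0.16, which within P11 was -0.02. Csf1r, the survival receptor of microglia, stood at 106, 180 and 154 against 117, 142 and 132 CPM (-0.14 ± 0.09, adjusted p = 0.372), and C1qa at 111, 132 and 110 against 116, 118 and 101 CPM (-0.07 ± 0.06, adjusted p = 0.519). The groups of both overlapped. The 6 microglial markers, which include Itgam, Csf1r and C1qa, summed to 426 to 627 TPM in basal and 418 to 477 TPM in treated cultures. Whether the number of microglia differed was not tested. Without the P11 libraries 3 phagocyte genes passed.

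Several inflammatory genes fell. Of 27 NF-kB and cytokine genes 6 fell and none rose (median -0.32, with 26 of 27 negative). Tnf stood at 2.91, 5.9 and 5.39 against 1.1, 3.21 and 2.63 CPM (-1.07 ± 0.16, adjusted p = 0.0177), with overlap between basal P11 and treated P13. The iron-binding Lcn2 depended strongly on the P number, with 1.11, 72.6 and 25.3 CPM in basal and 1.1, 41.1 and 16.4 CPM in treated cultures (-0.67 ± 0.09, adjusted p = 0.0164), so P11 added little to it. Csf1, the ligand of Csf1r (-0.32 ± 0.05, adjusted p = 0.0208), Vcam1 (-0.50 ± 0.09, adjusted p = 0.0263) and the feedback inhibitors Nfkbia and Nfkbiz (-0.31 ± 0.06, adjusted p = 0.0328, and -0.48 ± 0.10, adjusted p = 0.0438) made up the rest.

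Among 22 chemokine genes Cxcl12 (-0.46 ± 0.06, adjusted p = 0.0139) and Cx3cl1 (-0.30 ± 0.06, adjusted p = 0.0367) fell. The B-cell attractant Cxcl13 rose from 1.16, 2.72 and 1.24 to 2.68, 4.87 and 1.96 CPM (0.88 ± 0.18, adjusted p = 0.0366), a scarce transcript that also stood 0.62 ± 0.18 above basal at 1 µM without passing there. Complement genes had a median of -0.31 with 1 call of 19, and antigen presentation -0.12 with 1 of 26, Cd80. Both calls were falls, 5.26% and 3.85% of these lists, against 2.64% of all tested genes. None of 28 interferon-stimulated genes passed, and their medians within P11, P13 and P14 were -0.50, -0.42 and 0.31. The TPM of that list summed to 1456 in the 1 µM P13 library, against 267 to 426.5 in the others. Since that library enters the estimate of the spread, the absence of calls says little. At 1 µM against basal the list's median was 0.95.

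Most matrix, adhesion and guidance genes had negative fold changes, and a minority fell. Of 53 collagen and matrix genes 7 fell and none rose (median -0.30, 49 negative). Sparc, a collagen-binding protein also made by astrocytes and microglia, had 804, 567 and 546 CPM in basal and 585, 457 and 447 CPM in treated cultures (-0.35 ± 0.05, adjusted p = 0.0164). Within every P number it was lower, while treated P11 exceeded basal P13 and P14. Of 27 integrin and laminin genes 6 fell (median -0.36), among them Itgb2, the leukocyte integrin chain (-0.63 ± 0.09, adjusted p = 0.0164), and Itgb4, a laminin receptor chain (-1.22 ± 0.27, adjusted p = 0.0456). By library totals 14 matrix and 8 integrin and laminin genes fell and by DESeq2 17 and 10, but with the trend over gene length removed 8 and 3.

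Of 26 metalloproteases and inhibitors 6 fell and 1, Adamts4, rose. Mmp9 (ENSRNOG00000017539), a gelatinase, had the largest fall of the genes taken by the naming rule, from 25.3, 7.36 and 8.84 to 8.57, 3 and 1.64 CPM (-1.75 ± 0.24, adjusted p = 0.0164). Basal P11 stood above all other libraries, and treated P11 was level with basal P13 and P14. Mmp2, the other gelatinase, went from 66.5, 35.3 and 21.9 to 42.5, 23.1 and 14 CPM (-0.64 ± 0.05, adjusted p = 0.0101), and Mmp14, which activates pro-Mmp2, also fell (-0.48 ± 0.09, adjusted p = 0.0317). Timp2, an inhibitor of both, fell by less (-0.28 ± 0.04, adjusted p = 0.0201).

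Of 56 axon guidance genes 8 fell and 1 rose (median -0.23). The receptors Robo2 (-0.45 ± 0.06, adjusted p = 0.0164), Robo1 (-0.43 ± 0.07, adjusted p = 0.0236) and Plxna2 (-0.48 ± 0.08, adjusted p = 0.0224) fell. Sema4d, a transmembrane semaphorin of oligodendrocytes, rose from 162, 175 and 196 to 209, 222 and 249 CPM (0.35 ± 0.06, adjusted p = 0.0201), and its groups were separate. Among growth factor genes, Igfbp5, a carrier of insulin-like growth factor, fell from 346, 381 and 273 to 188, 246 and 216 CPM (-0.62 ± 0.12, adjusted p = 0.0328). It was 1 of 2 falls in a list of 50 (4%, against 2.64% of all tested genes).

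Some neuronal and astrocytic genes fell as well. Of 23 genes of inhibitory interneurons 4 fell and none rose (median -0.05). Gad1, which makes GABA, went from 58.3, 189 and 176 to 37, 126 and 120 CPM (-0.60 ± 0.05, adjusted p = 0.0101), and Gad2, the other GABA-making enzyme, from 79.1, 53.2 and 42.6 to 37.3, 34.5 and 31.2 CPM (-0.72 ± 0.12, adjusted p = 0.0236). The 2 genes were ordered differently across P numbers, Gad1 lowest and Gad2 highest in P11, and only Gad2 had groups without overlap. Slc32a1, the vesicular GABA transporter, fell as well (-0.33 ± 0.06, adjusted p = 0.0302). Some of these genes are also expressed by OPCs. The 6 neuronal markers summed to 198 to 378 TPM in basal and 177 to 281 TPM in treated cultures. They include Gad1 and Gad2, so this sum is no separate reading of neurons. The part of neuron number was not tested.

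Of 27 astrocyte genes 4 fell and none rose (median -0.27). The medians within P11, P13 and P14 were -0.49, -0.11 and -0.13, and no member had all treated libraries below the basal ones. Slc4a4, a bicarbonate transporter, went from 124, 64.6 and 109 to 73.6, 36.9 and 81.4 CPM (-0.66 ± 0.07, adjusted p = 0.0114), and the glutamate transporter genes Slc1a2 (-0.65 ± 0.14, adjusted p = 0.046) and Slc1a3 (-0.40 ± 0.09, adjusted p = 0.0479) fell. Gfap (-0.20 ± 0.05, adjusted p = 0.065) and Aqp4 (-0.46 ± 0.12, adjusted p = 0.0694) did not pass. The 5 astrocyte markers, which include Slc1a2, Slc1a3, Gfap and Aqp4, summed to 1157 to 1750 TPM in basal and 861 to 1461 TPM in treated cultures. What part astrocyte number had was not tested.

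Among 35 glutamate and GABA receptor genes 5 fell and 1 rose (median -0.22). Gria1, an AMPA receptor subunit, fell from 14.2, 53.9 and 43.5 to 8.91, 27.5 and 27.3 CPM (-0.78 ± 0.08, adjusted p = 0.0101). Grm7, a presynaptic metabotropic receptor, rose from 8.3, 7.82 and 8.19 to 14.1, 13 and 11.8 CPM (0.67 ± 0.12, adjusted p = 0.025). Its basal libraries lay close together and all treated ones above them. Of 41 ion channel genes 5 fell (median -0.29), including the potassium channels Kcna1 (-0.46 ± 0.09, adjusted p = 0.0356) and Kcna2 (-0.43 ± 0.07, adjusted p = 0.0261).

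Of 12 tested lysophospholipid receptor genes 1 rose and 1 fell (median 0.04), both encoding receptors for sphingosine 1-phosphate. Each is 8.33% of that list, against 1.32% higher and 2.64% lower of all tested genes. S1pr5, the subtype of mature oligodendrocytes, rose from 56.7, 57.9 and 57.3 to 97.9, 79.9 and 82.4 CPM (0.59 ± 0.08, adjusted p = 0.0164), without overlap. S1pr3, the subtype of astrocytes and vessels, fell from 28.2, 53.5 and 46.4 to 17.4, 32.1 and 32.3 CPM (-0.65 ± 0.08, adjusted p = 0.0115), lower in each P number but with overlapping groups. The other 10 tested genes of the list did not pass.

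Few stress genes passed, and most of those that did fell. None of 21 unfolded protein response genes passed. Of 32 integrated stress response genes 1 fell (3.12%), Slc7a11, which is also counted in the NRF2 list that follows. Among 23 heat shock genes 1 fell (4.35%), against 2.64% of all tested genes. Of 28 NRF2 and metallothionein genes 5 fell and 1 rose. Slc7a11, the cystine importer, fell from 41.2, 22 and 21.6 to 17.3, 13.5 and 12.9 CPM (-0.91 ± 0.14, adjusted p = 0.0187), Hmox1, which degrades heme, fell by 0.46 ± 0.07 on the log2 scale (adjusted p = 0.0164), and Mt2A, a metallothionein, by 0.67 ± 0.10 (adjusted p = 0.0187). Mt2A has near-identical relatives whose reads the counting could split. Ftl1, the ferritin light chain that stores iron, rose from 888, 894 and 881 to 1199, 1330 and 1029 CPM (0.41 ± 0.07, adjusted p = 0.0281), with separate groups.

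Of 54 lysosomal genes 2 cathepsins fell (3.7%) and 1 rose (1.85%), near the shares of all tested genes (2.64% and 1.32%). Ctsl rose from 774, 848 and 736 to 1283, 1074 and 892 CPM (0.45 ± 0.08, adjusted p = 0.0315), while Ctsb fell from 613, 677 and 615 to 565, 570 and 495 CPM (-0.23 ± 0.05, adjusted p = 0.0449). Both had groups that did not overlap. None of 71 nuclear oxidative phosphorylation genes passed, although 68 were positive (median 0.12, which fell to 0.03 on TPM and 0.05 with the trend over gene length removed). The 13 mitochondrially encoded genes had medians of -0.23, 0.40 and 0.23 within P11, P13 and P14. Of 73 cytosolic ribosomal protein genes 1 rose, Rpl36 (1.37%, against 1.32% of all tested genes). The median of that list was 0.09, which fell to 0.02 on TPM and 0.01 with the length trend removed.

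**Figure D4:**
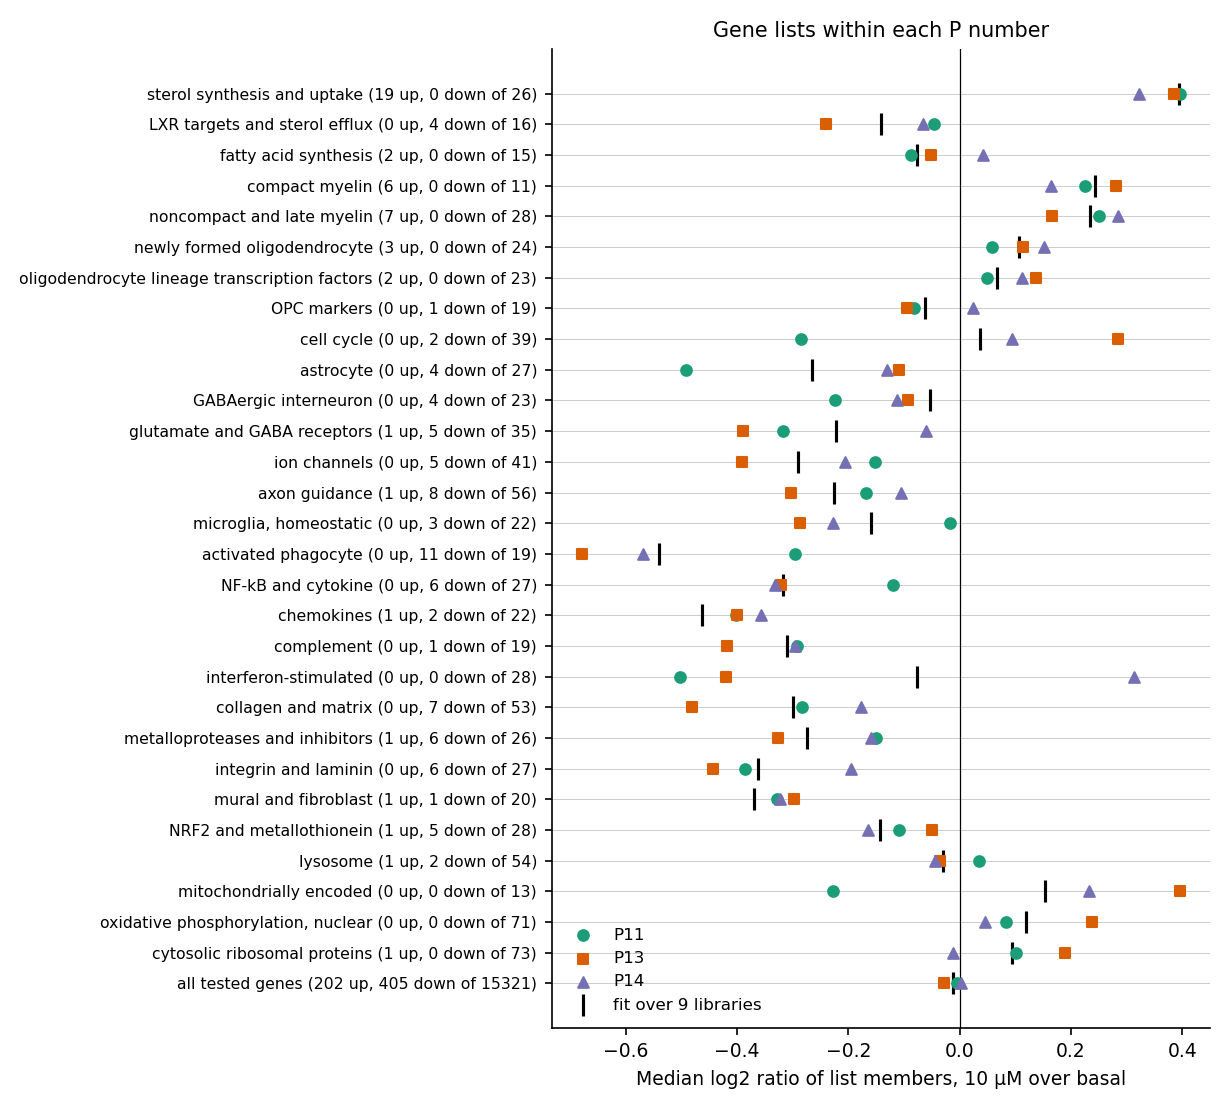
Median log2 ratio (10 µM over basal) of the tested members of gene lists and of all tested genes within P11 (circles), P13 (squares) and P14 (triangles), with the fitted value as a bar. The 3 symbols of the sterol and both myelin lists lie above 0 and those of the phagocyte, NF-kB, matrix and integrin lists below it, whereas the cell cycle, interferon and mitochondrially encoded lists have symbols on both sides.

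Histamine receptor genes were scarce. Hrh3, the target of the drug, had 9 to 35 reads per library and Hrh1 73 to 184, and neither passed (-0.19 ± 0.37, adjusted p = 0.793, and -0.23 ± 0.21, adjusted p = 0.559). Hrh2 had 1 to 10 reads and Hrh4 none in all 9 libraries, and a count of 0 allows up to 3 reads in a library, for counting error only. Aoc1 (ENSRNOG00000008575), which oxidises histamine and other diamines outside the cell, had the largest rise of the genes taken by the naming rule. It stood at 0.214, 2.4 and 4.09 CPM in basal and 0.268, 6.95 and 8.56 CPM in treated cultures (2.29-fold, log2 SE 0.19, adjusted p = 0.0199). P11 was close to 0 in both groups, so its rise rests on P13 and P14.

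Some genes of no list also changed. Sgk2, a protein kinase, rose from 3.59, 2.63 and 2.95 to 6.32, 4.69 and 4.91 CPM (0.80 ± 0.12, adjusted p = 0.0177). Eif4e3, a cap-binding protein, rose from 5.18, 6.78 and 8.54 to 8.24, 10.7 and 12.2 CPM (0.61 ± 0.09, adjusted p = 0.0164). The histone gene Hist2h2aa3 rose by 0.96 ± 0.18 (adjusted p = 0.0293) but stood as high at 1 µM (1.01 ± 0.18 over basal, adjusted p = 0.858), and it has near-identical copies. Falls among genes of no list included Dok2, a signalling adaptor of blood cells (-1.10 ± 0.16, adjusted p = 0.0175), Cd180, a receptor of myeloid and B cells (-0.93 ± 0.10, adjusted p = 0.0114), Cd200r1, an inhibitory receptor of myeloid cells (-0.95 ± 0.14, adjusted p = 0.0173), and Lyve1, a hyaluronan receptor of vessels and tissue macrophages (-0.96 ± 0.17, adjusted p = 0.0284). Of 32 membrane fusion genes 1, Stx3, fell and 1 rose. Each is 3.12% of that list, near the shares of all tested genes (2.64% lower and 1.32% higher). The rise was that of Vamp1, a vesicle fusion protein, which went from 48.2, 75.1 and 85.5 to 78.6, 114 and 110 CPM (0.55 ± 0.06, adjusted p = 0.0115).

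The fold changes varied with the level and length of a gene. Over 5 equal groups of the tested genes by TPM (medians 1.08, 6.65, 18.1, 38.9 and 117), the rises numbered 1, 11, 18, 39 and 133 and the falls 57, 125, 104, 83 and 36. Over 5 equal groups by apparent length (reads over TPM, with the median gene at about 1), the falls numbered 24, 54, 65, 110 and 152 and the rises 41, 38, 54, 41 and 28. Falling genes had a median relative length of 1.46, against 0.974 for the rising ones. The median log2 ratio ran downwards from the shortest to the longest group within P11 (0.076 to -0.0606) and P13 (0.129 to -0.178), but in P14 it ran from 0.0136 to -0.0125. With the trend over length removed, a setting chosen after seeing the data, 684 genes passed, 545 of them among the 607, and by count 19 sterol genes rose and 10 phagocyte genes fell. Axon guidance falls numbered 6 in place of 8, and those of integrin and laminin genes 3 in place of 6.

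**Figure D5:**
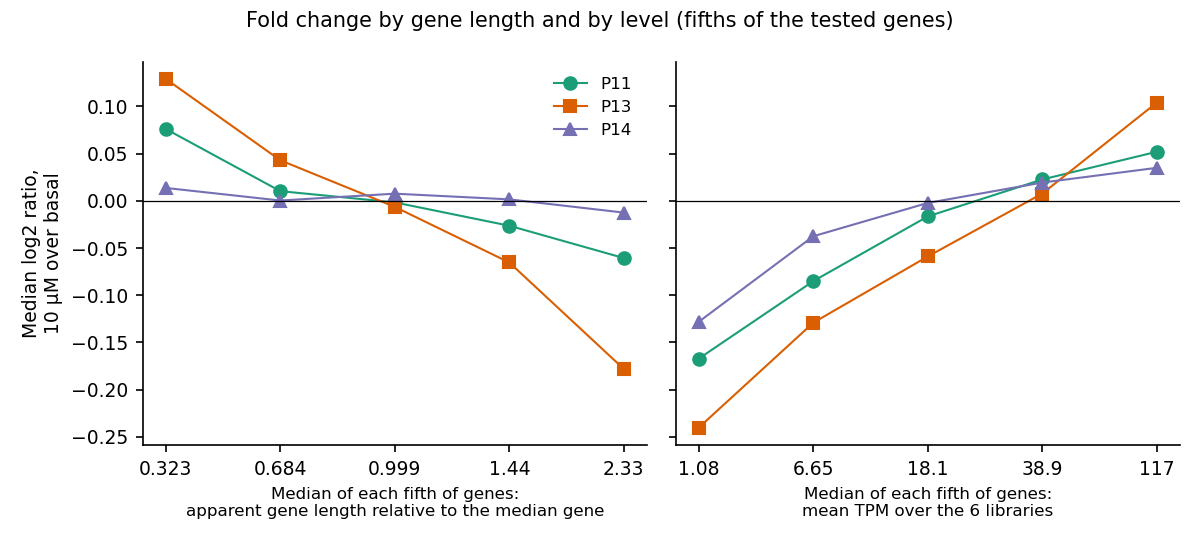
Median log2 ratio (10 µM over basal) within P11, P13 and P14 for 5 equal groups of the tested genes by apparent gene length (left, relative to the median gene) and by mean TPM (right), with the groups equally spaced along each axis. The lines fall with length in P11 and P13 and rise with level in all 3 P numbers.

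The comparison of 1 µM with basal called 0 genes in the blocked edgeR fit (582 at an unadjusted p under 0.05). The genes that rose at 10 µM had a median log2 fold change of 0.32 there and 0.03 at 1 µM, and those that fell -0.49 and -0.06, both against the same basal libraries. Single genes stood further from basal at 1 µM without passing there, such as Gad1 (-0.36 ± 0.05, adjusted p = 0.563) and the histone gene Hist2h2aa3. Against 1 µM, which shares the 10 µM libraries, 659 genes passed (4.3%), 200 higher (1.31%) and 459 lower (3%). Mbp stood 0.51 ± 0.07 (adjusted p = 0.0141) above 1 µM and 0.54 ± 0.07 above basal, and Spp1 at -0.91 ± 0.14 (adjusted p = 0.0199) and -1.26 ± 0.14. Both genes thus differed from either group.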

How the data were processed

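The members, gene lists and tests were chosen with earlier results of these data known. The submitters' processing notes list Trimmomatic, FastQC, Picard and DRAGEN, with build rn6. How genes were counted, and on which strand, is not given in the sources used here. Per the file's values, the authors deposited 1 table of estimated counts (expected counts) per gene, unscaled and 92.7% whole numbers. Their other deposited table holds TPM, scaled by gene length. Of 32623 IDs 399 had no name (at most 0.0111% of reads) and 20301 had a read.

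Counts were rounded. edgeR 4.0.16 (R 4.3.3) fitted all 9 libraries with the group and the P number as a block, TMM scaling and the filterByExpr filter (minimum count 10, minimum total 15), leaving 15321 genes. Benjamini-Hochberg adjusted p-values under 0.05 were called. CPM are scaled by TMM, and ratios within a P number use log2 CPM with a prior count of 2. Depths were 23.9 to 43.1 M reads (M, 1000000 reads) per library.

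The labels give the same P numbers in each group. After subtracting group means, all 9 pairs that share a number correlated across genes (0.319 to 0.772), against -0.708 to 0.193 in 18 pairs that do not, so the block was kept. Replicates of a group all differed by more than sampling noise (chi-square over its degrees of freedom 23.8 to 117).

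Named genes were the 15 largest rises and 15 largest falls (2 CPM or more on average, no placeholder symbol, the same sign in each P number), the 10 most abundant called genes by TPM, up to 5 called members of each list by smallest p, and a fixed core of receptor, myelin, progenitor, sterol and cell type genes, 163 in all. Other genes, such as Msmo1, Lss, Scap, Gpnmb and Cd68, were named after their values were seen, and a few genes taken by the rule are left out of the text. The 53 lists held 1502 symbols, of which 1437 were in the file and 1369 were tested.

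Alternatives were no block, DESeq2 1.42.0, DESeq2 size factors, library totals, limma 3.58.1 on log2(TPM + 1) (genes at 1 TPM or more in 3 libraries, or all genes) or on log2(TPM + 0.1), no count filter, a mean of 100 reads or more, the 6 libraries alone, no P11 libraries, a 1.2-fold minimum and leaving out each library. Removal of the trend over apparent gene length (robust loess, span 0.5) was added after seeing the data. Promoters came from RefSeq (GRCr8), matched by symbol.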

Additional observations from a re-analysis of the deposited data

How the results depend on the processing

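For 10 µM against basal (607 genes called) the count was 609 with DESeq2 size factors, 834 with library totals, 502 with limma on log2(TPM + 1), 715 without a count filter, 736 at a mean of at least 100 reads and 684 with the length trend removed. DESeq2 with the replicate block called 964. Without the replicate block it was 0, from the 6 libraries alone 0, against a 1.2-fold minimum 0 (lowest adjusted p = 0.0901, edgeR), without the P11 libraries 10 and by limma without a filter 9. Leaving out each library gave 0 to 581. For 10 µM against 1 µM (659 called), no replicate block gave 0, the 6 libraries alone 0, a 1.2-fold minimum 0 (lowest adjusted p = 0.083, edgeR), no P11 libraries 110, limma on log2(TPM + 0.1) 433 and limma without a filter 6. Leaving out each library gave 0 to 651, with 0 when 1 µM P11, 1 µM P14 or 10 µM P14 was left out. The causes were not tested. Leaving out libraries or fitting 6 alone also lowers the degrees of freedom, and its part in the lost calls was not tested. Of 150 named genes called, none changed direction in any setting run, and none stayed called in all 9 fits that leave out 1 library (median 4, range 0 to 7). Those directions were nearly fixed in advance, since every call had 1 direction in all 3 P numbers. In fits with libraries left out, the spread was taken as equal in all groups. Depth limits genes with few reads, such as Hrh3.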
